A study of Mus musculus with 4 samples.

Results

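The E2F and retinoblastoma family comprised 10 genes here, taken by name and located in the GENCODE vM21 annotation of the mouse genome (GRCm38), out of 21911 protein-coding genes. They were the activators E2f1, E2f2 and E2f3, the repressors E2f4, E2f5 and E2f6, the atypical members E2f7 and E2f8, and the pocket protein genes Rb1 and Rbl1. Every peak of 4 deposited lists that touched 1 of these genes, or the 5 kb on either side of its transcription start site (TSS), was collected. The TSS is the 5′ end of the gene, and positions are given in bp from it along the direction of transcription, with negative values upstream.

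The data came from the quiescent livers of 2 male mice on the C57Bl/6 background, aged 8 to 12 weeks and fed a normal diet. The WT mouse carried floxed Uhrf1 alleles (Uhrf1 fl/fl) without Cre. The Uhrf1hepKO mouse carried the same floxed alleles with Alb:Cre (Uhrf1 fl/fl;Alb:Cre), in which the albumin promoter drives Cre in hepatocytes. UHRF1 is the factor that brings the maintenance DNA methyltransferase to newly replicated DNA. The deletion is aimed at hepatocytes, and whether all other liver cells keep the gene was not read here. Whole liver was profiled, so fewer cells of a type and less signal per cell cannot be told apart. Each liver gave 1 ATACseq library, which reads accessible DNA through the cuts of the Tn5 transposase, and 1 ChIPseq library for the histone variant H2A.Z. Each condition thus rests on a single library, so no difference between the livers could be tested, and all intervals below cover counting error only.

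E2F proteins bind DNA as dimers with a DP protein and control genes needed for DNA synthesis and entry into the cell cycle. Pocket proteins (RB1, p107 from Rbl1 and p130 from Rbl2) bind E2Fs and hold these genes silent in resting cells, p107 and p130 together with the MuvB complex as DREAM. E2f1, E2f2 and E2f3 are classed as activators, E2f4 and E2f5 work mainly with p107 and p130, E2f6 represses without pocket proteins, and E2f7 and E2f8 bind DNA without DP. Hepatocytes of the adult liver rest until the liver is injured or resected, when these genes take part in their return to the cell cycle. H2A.Z replaces H2A in the nucleosomes that flank many promoters.

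The sequences on which the accessible sites of these genes sit are shown first. The ATACseq peak upstream of E2f1 in the WT liver lay at chr2:154569919-154570132 (minus strand, GRCm38). That of Rbl1 lay at chr2:157204535-157204833 (minus strand) and ended at the base before the TSS. The E2f7 peak crossed the TSS, and only its part upstream, chr10:110745358-110745438 (plus strand), is printed. None of these 3 peaks overlapped a peak of the Uhrf1hepKO liver, and they are printed as the sites seen in WT alone at a TSS, without that of E2f6, which lay almost wholly inside the gene. All are written 5′ to 3′ on the strand of the gene from the RefSeq genome, with any match to the E2F motif in capitals.
E2f1: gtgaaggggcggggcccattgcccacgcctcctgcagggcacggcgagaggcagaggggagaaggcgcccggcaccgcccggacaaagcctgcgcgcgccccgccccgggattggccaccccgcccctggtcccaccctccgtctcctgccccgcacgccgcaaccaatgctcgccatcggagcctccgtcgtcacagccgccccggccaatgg
Rbl1: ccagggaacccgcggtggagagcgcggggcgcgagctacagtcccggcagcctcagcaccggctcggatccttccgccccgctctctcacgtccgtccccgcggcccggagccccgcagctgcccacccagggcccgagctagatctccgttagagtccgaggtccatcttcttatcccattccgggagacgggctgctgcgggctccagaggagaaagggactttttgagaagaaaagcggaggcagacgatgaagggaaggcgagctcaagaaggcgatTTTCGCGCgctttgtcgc
E2f7: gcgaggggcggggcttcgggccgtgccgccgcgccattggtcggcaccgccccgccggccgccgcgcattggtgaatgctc
The E2f1 peak of 214 bp held 24 CpGs and 75.2% G+C, the Rbl1 peak of 299 bp held 31 CpGs and 65.6% G+C, and the 81 bp of E2f7 held 14 CpGs and 79.0% G+C. The Rbl1 peak contained 1 E2F motif, at −18 to −11, while the E2f1 and E2f7 peaks contained none.

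The E2F motif was searched as TTTCCCGC, TTTCGCGC, TTTGCCGC or TTTGGCGC on both strands. RefSeq promoters (250 bases before to 50 after a start, GRCm38.p6) were found for 7 of the 10 genes, as 9 promoters, and E2f4, E2f5 and Rb1 were missing entries. The motif was in 4 of the 9 promoters (44.4%), those of Rbl1, E2f2, E2f7 and E2f3, beside 2.26% of the 32851 promoters in the table. Counted by gene, that was 4 of 7 (57.1%) beside 2.60% of 27025. The 9 promoters held 7 to 49 CpGs with a median of 29, against a median of 7 over all promoters, and the median G+C was 66.7% against 52.7%. Within 500 bases on either side of a start, 6 of the 7 genes had the motif, all but E2f6, beside 6.57% of all genes. RefSeq starts E2f1 at 466 from the TSS used here, so its sites at 4 and 17 lay outside the promoter searched. A second motif of cell cycle genes, the CHR element (TTTGAA, both strands), was in 3 of the 9 promoters (33.3%), those of E2f3, E2f8 and the downstream start of E2f2, beside 17.9% of all. No CHR match in these promoters overlapped an E2F match. A match is a description of the letters and not a bound site.

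The 9 E2F motifs within 500 bases of a RefSeq start are each printed with 11 bases on either side, so that the site under a peak can be set beside the sites outside. The number after each name is the position of the first motif base from the TSS, and the sequence follows the strand of the gene.
E2f1 4: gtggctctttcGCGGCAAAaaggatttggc
E2f1 17: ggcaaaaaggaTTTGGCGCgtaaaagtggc
E2f2 −81: gcggcatatagTTTGGCGCtaaaaaaaaaa
E2f3 −11: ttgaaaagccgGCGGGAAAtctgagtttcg
E2f7 −198: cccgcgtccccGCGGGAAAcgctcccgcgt
E2f8 256: gaaggcggccgTTTCCCGCctcccgccccg
E2f8 385: tcccgctttccGCGCCAAAtttttaaatcg
Rbl1 −18: aagaaggcgatTTTCGCGCgctttgtcgcg
Rbl1 405: tttggattgagGCGGGAAAccgaagatcgg
The sites of E2f1 overlap in the bases shown. In the WT liver 3 of these 9 sites lay under an ATACseq peak, E2f3 −11, E2f8 385 and Rbl1 −18, and in the Uhrf1hepKO liver 2 did, E2f3 −11 and E2f8 385. Over all 1715 such motifs at RefSeq starts, 15.7% lay under a WT and 13.6% under a Uhrf1hepKO ATACseq peak. None of the 9 lay under an H2A.Z peak in either liver, beside 14.1% in WT and 14.0% in Uhrf1hepKO. The E2f1 sites were just downstream of the TSS, outside the WT peak that ended at −27.

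ATACseq peaks lay at the TSS (within 5 kb) of 7 of the 10 genes in the WT liver (70.0%, Wilson 95% interval 39.7 to 89.2) and of 3 in the Uhrf1hepKO liver (30.0%, 10.8 to 60.3). Over all protein-coding genes the shares were 30.2% in WT and 27.8% in Uhrf1hepKO. E2f3, E2f5 and E2f8 had a peak in both livers. With only peaks of at least the median fold of their list, the count was 3 in both livers. The shares of all protein-coding genes above are for all peaks, and none is given at that cut. E2f1, E2f6, E2f7 and Rbl1 had 1 in the WT list alone, and E2f2, E2f4 and Rb1 had none at the TSS in either. H2A.Z peaks lay at the TSS of 9 genes in each liver (90.0%, 59.6 to 98.2), all but E2f7, beside 52.8% of protein-coding genes in WT and 51.0% in Uhrf1hepKO. Peaks of both assays were at 6 genes in WT, beside 27.8% of protein-coding genes, and at 3 in Uhrf1hepKO, beside 25.0%. With a window of 1 kb, H2A.Z peaks lay at 8 genes in each liver, since those of E2f8 lay farther inside the gene. Peaks of both assays were then at 5 genes in WT and 2 in Uhrf1hepKO, and no share of all genes is given at that window.

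**Figure D1:**
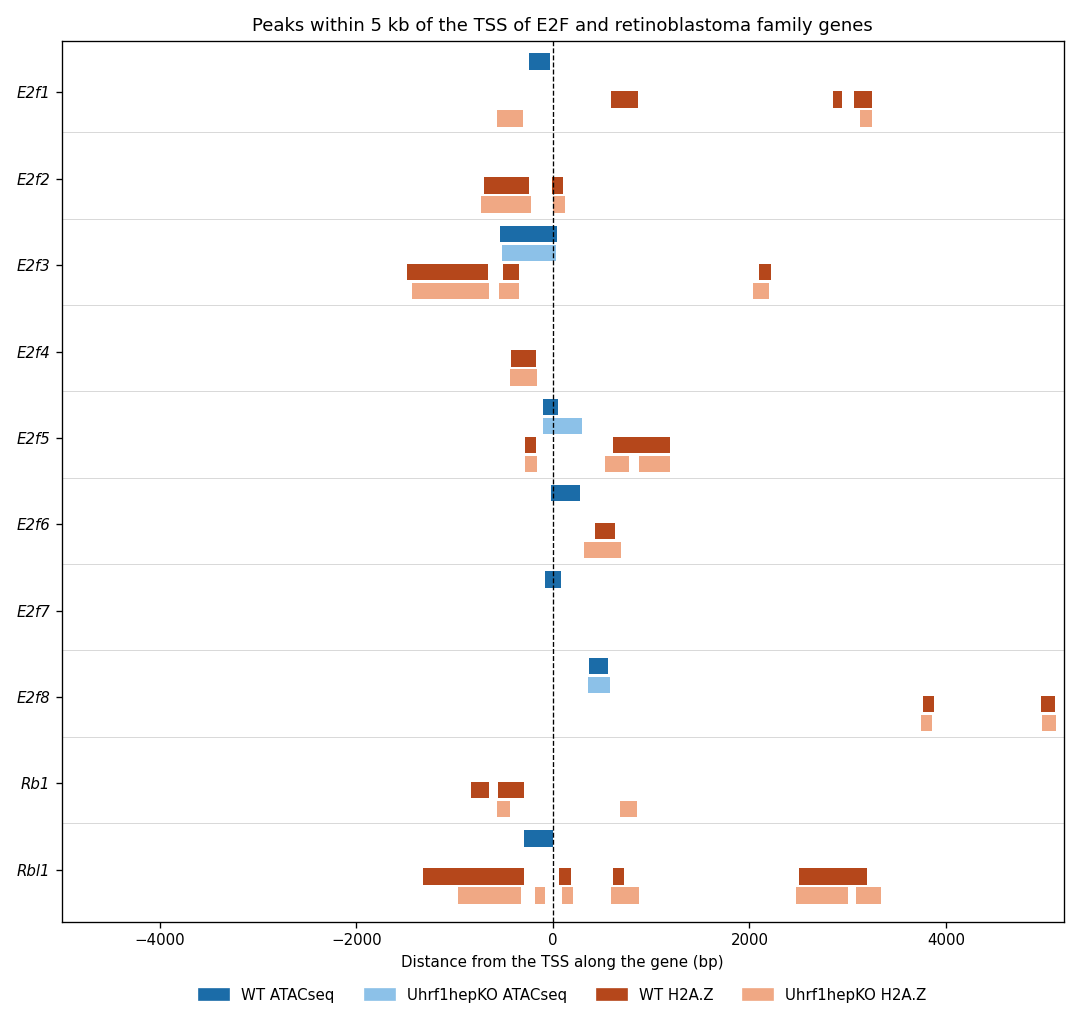
Peaks of the 4 lists within 5 kb of the TSS of each gene, by distance from the TSS along the gene. ATACseq peaks are present at 7 genes in WT and at 3 in Uhrf1hepKO, whereas H2A.Z peaks are present at 9 genes in both livers and E2f7 has none.

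Peak strength was read as the rank of the fold, the ratio of the read pileup to the local background, within the same list, as a percent of peaks at or below it. Folds are printed for both livers but are not scaled between lists, so folds side by side do not compare strength. For H2A.Z the reads at the summit are also given, over a background of 3.10 reads per base in WT and 3.30 in Uhrf1hepKO. These reads are not scaled between the libraries. Whether their Poisson intervals overlap is a description and not a test of a difference between the livers. Every peak at the TSS is described below by the role of the gene.

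E2f1, an activator that also drives apoptosis when in excess, spans chr2:154559407-154569892 on the minus strand. Its WT ATACseq peak from −240 to −27 had a fold of 3.72, at rank 20.0%, and the nearest peak of the Uhrf1hepKO list was 33414 bp away. Inside the gene both livers had H2A.Z, with a WT peak from 3069 to 3252 of fold 6.58 (26 reads at the summit) and a Uhrf1hepKO peak from 3128 to 3244 of fold 5.58 (23 reads). RefSeq places the start of E2f1 at 466, downstream of the GENCODE start used here. Around these starts the lists differed. The WT list had a peak from 587 to 869 (fold 5.85, 23 reads, 95% Poisson interval 14.6 to 34.5) and a weak one from 2848 to 2942 (fold 4.15), and the Uhrf1hepKO list had neither. Instead it had a peak upstream, from −565 to −303 (fold 6.27, 26 reads, 17.0 to 38.1), 890 bp from the nearest WT peak. These peaks lie at different places, and the reads of the other liver at each place are not known from the lists. Neither place could thus be compared between the livers.

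E2f2, an activator with a role in blood cell proliferation, spans chr4:136172394-136196057 on the plus strand. Neither liver had an ATACseq peak within 5 kb of its TSS. The H2A.Z peaks at the TSS lay at like positions in the livers. They ran from −707 to −245 in WT (fold 8.29, rank 89.7%) and from −730 to −227 in Uhrf1hepKO (fold 8.37, rank 88.4%). Each was followed by a small peak across the TSS (folds 5.36 and 5.35). Inside the gene, the WT liver had a weak ATACseq peak from 7772 to 8160 (fold 3.43, rank 4.26%), just upstream of a shorter transcript that starts at 8389. An H2A.Z peak from 7868 to 8002 (fold 4.39, 17 reads) lay within it. Beside it, both livers had H2A.Z from 7538 to 7674 (WT, fold 5.85) or from 7513 to 7661 (Uhrf1hepKO, fold 7.67). The Uhrf1hepKO liver lacked the overlapping pair and had an H2A.Z peak from 8374 to 8505 (fold 5.11, 21 reads) over the start of that transcript. Deeper in the gene, a shared H2A.Z peak spanned 14614 to 14753 in WT (fold 5.12) and 14478 to 14739 in Uhrf1hepKO (fold 5.81).

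E2f3, the activator with the longest gene of the 3, spans chr13:29906575-29986063 on the minus strand. Its ATACseq peak ran from −544 to 45 in WT (fold 5.62, rank 83.7%) and from −517 to 36 in Uhrf1hepKO (fold 5.33, rank 83.6%), so both the span and the rank were alike. H2A.Z peaks lay under its upstream end and farther upstream in both livers. The peak from −512 to −347 in WT had a fold of 9.99 (rank 96.0%, 40 reads) and that from −550 to −341 in Uhrf1hepKO had 9.30 (rank 92.8%, 39 reads). The peak farther upstream, from −1485 to −664 in WT and from −1432 to −646 in Uhrf1hepKO, had folds of 9.02 and 9.06. Downstream of transcript starts at 1672 and 1822, weak peaks with folds of 3.66 and 3.72 spanned 2101 to 2222 in WT and 2041 to 2200 in Uhrf1hepKO. All 5 H2A.Z peaks of E2f3 overlapped between the livers, among them an intronic pair that began at 40461 and 40759 in WT (folds 6.09 and 8.29).

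E2f4, the main repressor E2F of resting cells, spans chr8:105297663-105305370 on the plus strand. It had no ATACseq peak in either list. Its only H2A.Z peak was in the promoter, from −432 to −171 in WT (fold 8.04, rank 88.3%, 32 reads, 21.9 to 45.2) and from −436 to −158 in Uhrf1hepKO (fold 11.6, rank 98.3%, 49 reads, 36.3 to 64.8). The rank was higher in the Uhrf1hepKO list, and the read intervals overlap. The gene Exoc3l, an exocyst-related gene, starts upstream on the other strand, at −1562.

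E2f5, the other repressor that works with p107 and p130, spans chr3:14578641-14606309 on the plus strand. Its ATACseq peak crossed the TSS in both livers, as a narrow peak from −100 to 47 in WT (fold 6.41, rank 92.3%) and a wider one from −104 to 296 in Uhrf1hepKO (fold 4.43, rank 63.9%). The fold of a broad peak is a mean over its width. H2A.Z lay on both sides of it. The upstream peak had folds of 6.34 in WT and 6.27 in Uhrf1hepKO, and the WT peak from 610 to 1188 (fold 7.56) was 2 peaks in Uhrf1hepKO, from 528 to 769 and from 872 to 1193 (folds 4.65 and 6.51).

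E2f6, a repressor found in Polycomb complexes, spans chr12:16810963-16839742 on the plus strand. A WT ATACseq peak crossed its TSS from −21 to 280 with a fold of 3.55 at rank 9.60%, and the nearest Uhrf1hepKO peak was 57410 bp away. Its H2A.Z peak followed downstream in both livers, from 428 to 632 in WT (fold 4.14, rank 23.4%, 16 reads, 9.15 to 26.0) and from 311 to 689 in Uhrf1hepKO (fold 5.35, rank 51.7%, 22 reads, 13.8 to 33.3). The latter was wider and ranked higher, and the read intervals overlap.

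E2f7, an atypical repressor that with E2f8 takes part in the polyploidy of hepatocytes, spans chr10:110745439-110787384 on the plus strand. Its WT ATACseq peak crossed the TSS from −81 to 80 (fold 3.97, rank 33.9%), and the nearest Uhrf1hepKO peak was 174525 bp away. It was the only gene of the 10 with no H2A.Z peak in the gene or near the TSS in either liver.

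E2f8, its atypical partner, spans chr7:48866429-48881596 on the minus strand. The ATACseq peak lay downstream of the TSS, from 366 to 565 in WT (fold 5.78, rank 86.0%) and from 361 to 576 in Uhrf1hepKO (fold 5.81, rank 89.6%), over the start of another E2f8 transcript at 555. The E2F site at 385 was inside both peaks. H2A.Z was not called next to it. The H2A.Z peaks began in an intron at 3770 in WT and 3747 in Uhrf1hepKO (folds 6.09 and 5.81), and a strong one followed at 4967 in WT and 4976 in Uhrf1hepKO (folds 10.7 and 10.9, ranks 97.5% and 97.3%). The noncoding gene Gm2788 starts close by, at 3638 on the other strand, so these peaks cannot be given to E2f8 alone. The Uhrf1hepKO list held 1 further weak H2A.Z peak from 7583 to 7683 (fold 4.42).

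Rbl1, which encodes p107, spans chr2:157145893-157204534 on the minus strand. Its WT ATACseq peak from −299 to −1 had a fold of 4.24 at rank 47.3%, the strongest of the 4 that were in the WT list alone, and the nearest Uhrf1hepKO peak was 69224 bp away. H2A.Z surrounded the TSS in both livers. The upstream peak, from −1326 to −299 in WT, was the widest of all H2A.Z peaks of these genes (1028 bp, fold 8.77, rank 91.9%), and in Uhrf1hepKO it ran from −971 to −321 (fold 6.74, rank 74.5%). Downstream, the peak from 614 to 728 had a fold of 6.82 in WT (27 reads, 17.8 to 39.3), and that from 588 to 879 had 8.60 in Uhrf1hepKO (36 reads, 25.2 to 49.8), with overlapping intervals. The peak just inside the gene, from 61 to 186 in WT and from 87 to 203 in Uhrf1hepKO, had folds of 5.36 and 5.58. A wide WT peak from 2509 to 3199 (fold 6.58) faced 2 Uhrf1hepKO peaks, from 2471 to 3004 and from 3087 to 3341 (folds 5.58 and 4.18). All 4 WT peaks overlapped Uhrf1hepKO peaks. The Uhrf1hepKO list alone had a peak from −185 to −76 (fold 5.11, 21 reads, 13.0 to 32.1), which lies inside the span of the WT ATACseq peak.

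Rb1, the retinoblastoma gene, spans chr14:73183673-73325822 on the minus strand and is the longest of the 10, at 142150 bp. It had no ATACseq peak within 5 kb of the TSS. Its TSS held weak H2A.Z peaks in both livers, from −563 to −296 in WT and from −568 to −435 in Uhrf1hepKO (folds 4.87 and 5.11), with a neighbour from −833 to −653 in WT alone (fold 4.63) and 1 from 680 to 856 in Uhrf1hepKO alone (fold 3.49). Most of its H2A.Z peaks were far inside the gene. Each list had 14 peaks in or near Rb1, 12 of them beyond 5 kb, and 11 of the 14 WT peaks overlapped a Uhrf1hepKO peak. No share over all peaks of the lists is given beside this count.

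The intronic H2A.Z peaks of Rb1 fell into groups. In the group nearest the TSS among the shared ones, the WT peaks from 72308 to 72813 (fold 7.80) and from 71591 to 72108 (fold 7.07) overlapped Uhrf1hepKO peaks with folds of 7.44 and 8.60, as did weaker ones from 71259 to 71482 (fold 4.39) and from 75593 to 75829 (fold 5.12), which faced folds of 5.11 and 7.44. Farther in, the WT peak from 116393 to 116695 (fold 7.56) overlapped 1 of fold 6.51, and its 2 WT neighbours, with folds of 5.61 and 6.58, both overlapped a single Uhrf1hepKO peak from 115764 to 116244 (fold 6.27). Peaks from 67161 to 67367 and from 70056 to 70225 were in the WT list alone, and peaks from 113682 to 113787, from 113921 to 114183 and from 116714 to 116893 in the Uhrf1hepKO list alone, with folds of 3.95 to 5.85. Another group lay at the start of Lpar6, a lysophosphatidic acid receptor gene nested in Rb1 on the other strand, with its TSS at 87927. The single ATACseq peak in Rb1, in the WT list, covered that position from 87724 to 87958 (fold 3.52, rank 8.49%), with H2A.Z peaks on both sides of it in each liver. Their summits held 17, 20 and 17 reads in WT and 29, 22 and 24 in Uhrf1hepKO, and the intervals of each pair overlap, the widest apart being 9.9 to 27.2 and 19.4 to 41.6.

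**Figure D2:**
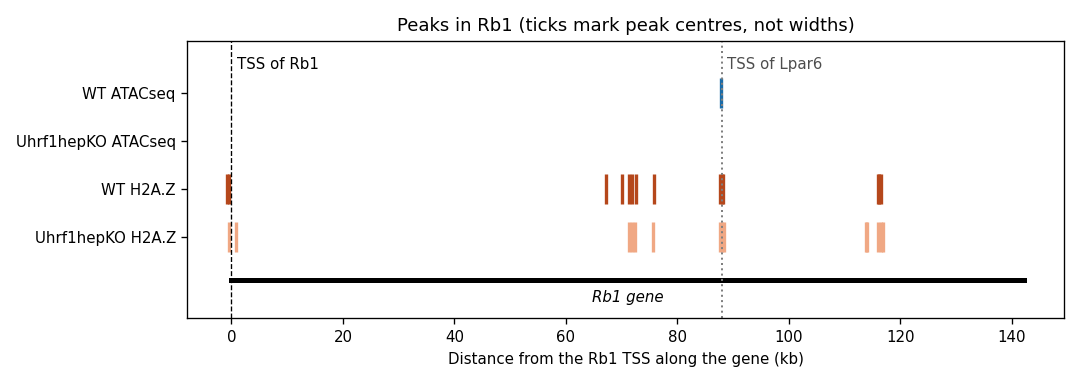
All peaks in Rb1 by distance from its TSS in kb, 1 row per list. Each H2A.Z row has 14 peaks, 12 of them beyond 5 kb, and the only ATACseq peak is in WT at 87724 to 87958 bp, where the nested gene Lpar6 starts.

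Across the 10 genes, the WT ATACseq list held 9 peaks and the Uhrf1hepKO list 3, of which 7 and 3 lay within 5 kb of the TSS and 4 and 2 covered it. The H2A.Z lists held 37 and 40 peaks, of which 20 and 22 lay within 5 kb of the TSS and 1 in each, that of E2f2, covered it. In each H2A.Z list 25 peaks lay in introns alone, 12 of them in Rb1 and 13 in the other genes.

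The livers were set side by side by overlap of at least 1 bp. Of all 9 WT ATACseq peaks 3 overlapped a Uhrf1hepKO peak, and of all 37 WT H2A.Z peaks 31 did. These counts include peaks beyond 5 kb of the TSS, and no share over all peaks of the lists is given for them. By gene, 3 of the 7 with a WT ATACseq peak at the TSS also had a Uhrf1hepKO peak, beside 76.2% of the 6612 protein-coding genes with one, and 9 of 9 for H2A.Z, beside 92.5%. By peak within 5 kb of the TSS, 3 of 7 WT ATACseq peaks overlapped, beside 72.8% at all protein-coding genes, and 17 of 20 WT H2A.Z peaks, beside 78.1%.

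The 4 ATACseq peaks at a TSS in the WT list alone ranked 9.60% (E2f6), 20.0% (E2f1), 33.9% (E2f7) and 47.3% (Rbl1), all below the median fold of their list. The 3 shared peaks ranked 83.7% (E2f3), 86.0% (E2f8) and 92.3% (E2f5). Over all WT ATACseq peaks near a protein-coding TSS, cut into 4 classes by the rank of the fold in the whole list, the share found in the Uhrf1hepKO list was 39.2% in the lowest class, 60.6% and 78.4% in the next ones and 93.5% in the highest. The peaks of these genes numbered 0 shared of 2 in the lowest class, 0 of 2 in the next and 3 of 3 in the highest. For H2A.Z the shares were 47.4%, 60.6%, 81.7% and 98.4%, and those of these genes 2 of 3, 1 of 2, 4 of 5 and 10 of 10. The ATACseq background, as solved from the most frequent fold of each list, was 2.0 reads per base in Uhrf1hepKO and 1.56 in WT. That fold stood for 9 reads in Uhrf1hepKO and 8 in WT, and was held by 291 and 253 peaks. With those peaks included, only 3.60% and 3.18% of the ATACseq folds lay on its steps. This background thus rests on few peaks, and whether it truly differed was not tested. The part of rank and background in the absence of the 4 peaks was not tested.

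**Figure D3:**
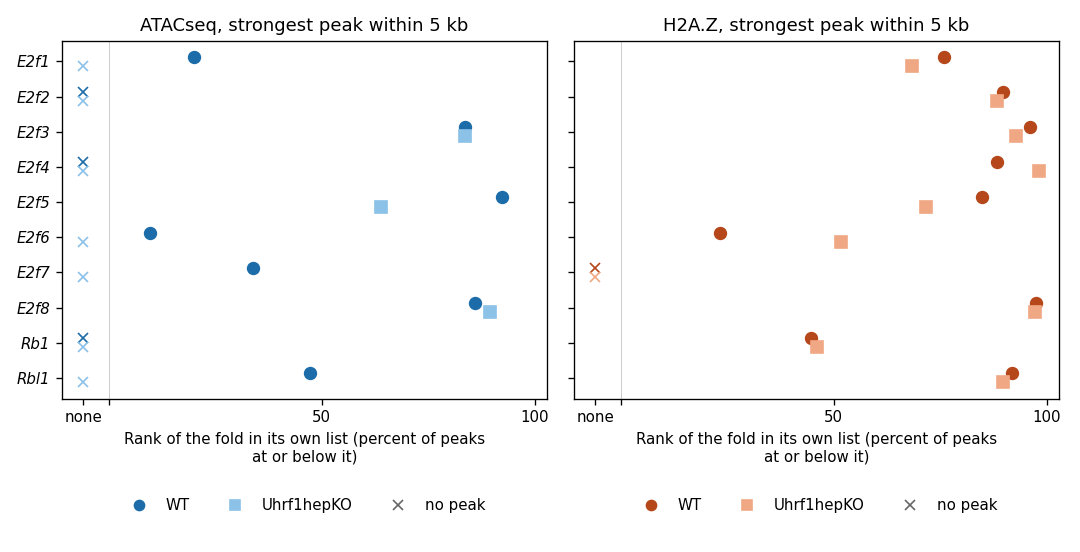
Rank of the strongest peak within 5 kb of the TSS of each gene, in percent of the peaks of its own list at or below its fold, for WT and Uhrf1hepKO. In ATACseq, the genes with a peak in both livers have WT ranks of 83.7% to 92.3% and those with a WT peak alone 9.60% to 47.3%.

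**Figure D4:**
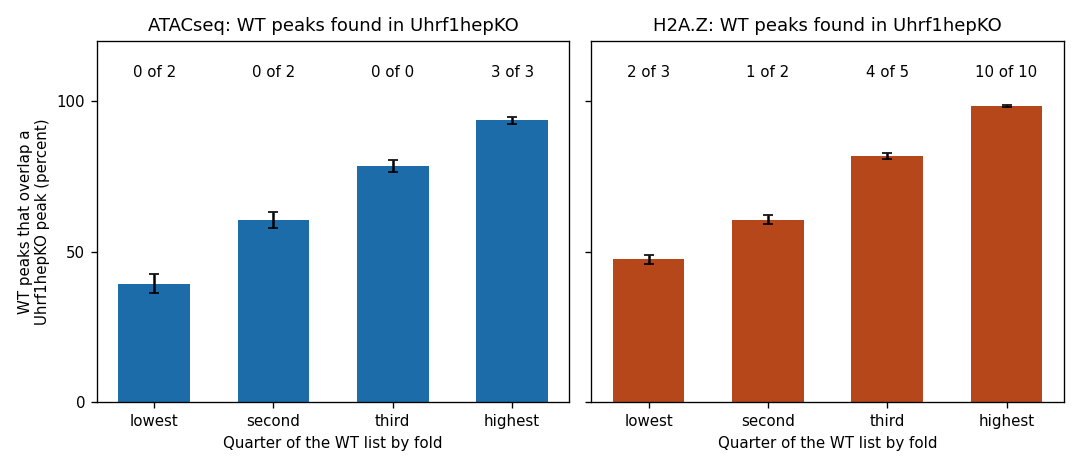
Percent of WT peaks near a protein-coding TSS (5 kb) that overlap a Uhrf1hepKO peak, with Wilson 95% intervals, in 4 classes of the WT list by fold. The share goes from 39.2% to 93.5% in ATACseq and from 47.4% to 98.4% in H2A.Z, and the counts for the E2F and retinoblastoma family genes are written in the plot.

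ATACseq and H2A.Z were next compared in the same liver. In WT, the ATACseq peaks of E2f2, E2f3, Rb1 and Rbl1 overlapped an H2A.Z peak, that of Rbl1 by 1 bp, and those of E2f1, E2f5, E2f6, E2f7 and E2f8 did not. The WT peak of E2f5 had H2A.Z summits 197 bp upstream and 717 bp downstream of its centre, and that of Rbl1 430 bp upstream and 276 bp downstream. For E2f1 and E2f6 a summit was found only downstream, at 928 and 414 bp. The E2f8 peak was 3349 bp from the next summit in WT and 3334 bp in Uhrf1hepKO. In Uhrf1hepKO, the E2f3 peak had a summit 188 bp upstream, against 183 bp in WT.

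Other genes of the pathway were counted in a list of partners and a list of targets. Over all protein-coding genes, 30.2% in WT and 27.8% in Uhrf1hepKO had an ATACseq peak at the TSS. For H2A.Z these shares were 52.8% and 51.0%. Of 9 partners (Rbl2, the DP genes Tfdp1 and Tfdp2, Mybl2 and the MuvB genes Lin9, Lin37, Lin52, Lin54 and Rbbp4), 5 had an ATACseq peak at the TSS in each liver (55.6%, 26.7 to 81.1) and 8 an H2A.Z peak (88.9%, 56.5 to 98.0). The count was equal, but Lin9 had an ATACseq peak in Uhrf1hepKO alone (fold 3.44, rank 15.9%) and Lin37 had 2 in WT alone. The stronger Lin37 peak (fold 5.39, rank 79.7%) ran from −3498 to −3339, and the other lay within 1 kb of the TSS. Rbl2, which encodes p130, had no ATACseq peak and the highest H2A.Z rank of the partners, 99.1% in WT and 98.3% in Uhrf1hepKO. The highest ATACseq rank in Uhrf1hepKO was that of Lin52 (70.5%). Mybl2, the B-Myb gene, had no H2A.Z peak in either liver but an ATACseq peak in both.

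Of 22 E2F targets in DNA replication and the cell cycle, 15 had an ATACseq peak in each liver (68.2%, 47.3 to 83.6). H2A.Z peaks were at 21 in WT (95.5%, 78.2 to 99.2) and 20 in Uhrf1hepKO (90.9%, 72.2 to 97.5). Among all protein-coding genes, ATACseq shares were 30.2% in WT and 27.8% in Uhrf1hepKO, and H2A.Z shares 52.8% and 51.0%. The ribonucleotide reductase genes Rrm1 (rank 64.5%) and Rrm2 (rank 26.4%) had an ATACseq peak in WT alone. The cyclin gene Ccne2 (rank 44.6%) and the replication licensing gene Cdt1 (rank 41.1%) had 1 in Uhrf1hepKO alone. Ccne2 also had an H2A.Z peak in WT alone (fold 4.39, rank 30.8%). The helicase gene Mcm3 had the highest WT ATACseq rank (97.9%) and Mcm5 the highest in Uhrf1hepKO (97.1%) and in both H2A.Z lists (99.4% each). Tk1, the thymidine kinase gene, had no peak in any list. Uhrf1 itself, a member of this list, had a peak in all 4 lists, which does not check the deletion, since the floxed part of the gene was not read here.

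**Figure D5:**
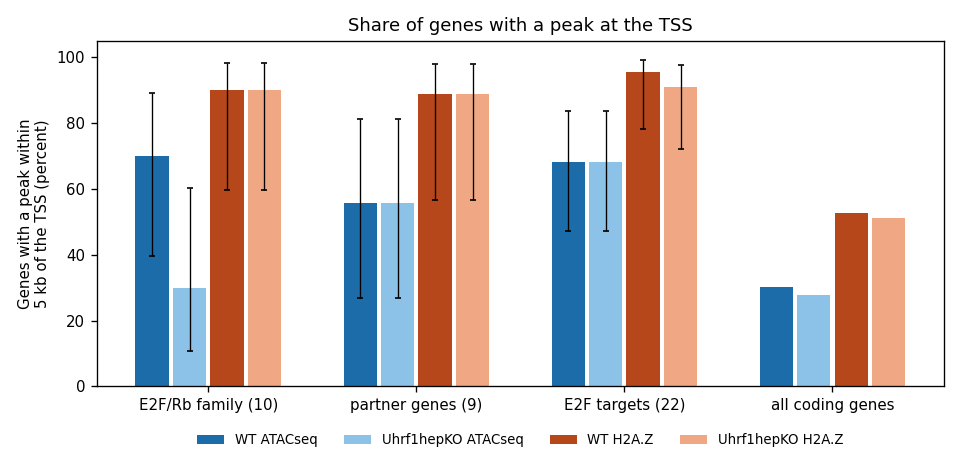
Percent of genes that had a peak in the 5 kb on either side of the TSS, with Wilson 95% intervals, for the 10 family genes, 9 partners, 22 targets and all protein-coding genes in each of the 4 lists. The family is at 70.0% in WT and 30.0% in Uhrf1hepKO in ATACseq, while partners and targets each have an equal ATACseq count in both livers. The same genes are scored in both livers, so the intervals do not measure the difference between the livers.

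The lists used held 10582 and 10764 ATACseq peaks and 51450 and 47135 H2A.Z peaks in WT and Uhrf1hepKO. The total number of reads is not known from them. Few peaks were called at the genes that define liver cell types. All protein-coding genes had shares of 30.2% in WT and 27.8% in Uhrf1hepKO for ATACseq, and 52.8% and 51.0% for H2A.Z. Of 5 hepatocyte markers, the TSS of Alb had an ATACseq peak in Uhrf1hepKO and that of Ttr an H2A.Z peak in WT, and no other list had any. The 4 markers each of Kupffer, endothelial and stellate cells had none, and of the 4 cholangiocyte markers Sox9 had a peak in every list except Uhrf1hepKO ATACseq.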

How the data were processed

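ATACseq and H2A.Z ChIPseq were done on 1 WT and 1 Uhrf1hepKO liver. The authors aligned reads to GRCm38.p4 with BWA-MEM, processed them with PICARD (removing duplicates for ChIPseq) and called peaks per library with MACS2, with a p of 0.05 given in the methods. The largest q in the deposited lists was 0.0997 and 0.0993 for ATACseq and 0.05 and 0.0489 for H2A.Z (WT and Uhrf1hepKO), so the lists end at limits on q that differ between the assays. ATACseq peaks were called as broad with the paired-end option, although the reads are given as single-end, and the mode for H2A.Z and the MACS2 version are not given in the sources used here. The submitters' processing notes also name FastQC 0.11.5 and Trimmomatic. Each deposited peak carries a score (10 times −log10 q), a fold ratio over the background, and −log10 p- and q-values, all from the authors' caller. The deposited H2A.Z lists add the summit. No value is scaled between libraries.

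The analysis kept the peaks of chromosomes 1 to 19 and of X and Y. Genes came from GENCODE vM21, without 27 duplicated symbols, and sequences from RefSeq. Peaks were tied to a gene by 1 bp of overlap with it or with the 5 kb on either side of its TSS, and promoters were the 500 bp upstream. Shares have Wilson 95% intervals. The background and the H2A.Z reads at a summit, with exact Poisson intervals, were solved from the deposited fold and p-value, for 75 of 77 H2A.Z peaks. Any PCR copies left after the removal of duplicates would make such intervals too narrow. With 1 library per condition no test was possible. The 10 genes, the partner, target and marker lists and the alternatives were chosen with earlier results of these data known. All 10 genes are named, and partners and targets are named where a peak at the TSS differed between livers or had the highest rank of its list, while Mybl2, Tk1 and Uhrf1 were added after their values were seen. Steps were tested on simulated data. Scripts ran under Python 3.11.15 with pandas 2.3.3, numpy 2.4.6, matplotlib 3.10.9 and scipy 1.17.1.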

Additional observations from a re-analysis of the deposited data

How the results depend on the processing

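The counts were recomputed with a window of 1 kb, with the TSS of any transcript, with peaks of at least the median fold, with the longer list of an assay shortened to the length of the other, with other overlap rules and with other motif windows and spellings. Of 66 alternatives 58 stayed within 1.5 times the count, or within the interval of the share. Among these, 9 genes in WT and 3 in Uhrf1hepKO had an ATACseq peak with the TSS of any transcript. The genes gained in WT were E2f2 and Rb1, through weak peaks (ranks 4.26% and 8.49%). That in Rb1 covers the TSS of Lpar6 and cannot be given to Rb1 alone. With lists of equal length the ATACseq counts were 7 and 3. The WT ATACseq list was already the shorter (10582 against 10764 peaks), so its count could not change. Few peaks left the Uhrf1hepKO list, so this setting says little about the gap between the livers. The other 8 alternatives moved. With only peaks of at least the median fold, 3 of the 10 genes had a WT ATACseq peak at the TSS, as many as in Uhrf1hepKO, and 3 had both assays in WT, the WT ATACseq list held 3 peaks in or near these genes, and 3 partners had an ATACseq peak in each liver. The share of WT peaks that overlapped a Uhrf1hepKO peak was then 100% in ATACseq and 92.6% in H2A.Z, against 33.3% and 83.8%. When the overlap had to cover 50% of both peaks, it was 64.9% in H2A.Z. No share over all protein-coding genes or over all peaks is given at these alternative settings. The lists hold no site below the calling threshold, so an absent peak does not show closed chromatin or the absence of H2A.Z. No replicate could be left out. No paired analysis was possible because each group has 1 sample and no test was made.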

Other observations

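Beyond the windows used above, the nearest H2A.Z peak to E2f7 was 11982 bp upstream of its TSS in WT (fold 5.85, rank 65.6%) and 12000 bp upstream in Uhrf1hepKO (fold 4.42, rank 26.9%), and these peaks touched no gene. For E2f4, the nearest ATACseq peak in WT was 72459 bp upstream, at D230025D16Rik, and in Uhrf1hepKO 50125 bp downstream, at Fhod1. Outside Rb1, the nearest ATACseq peak was 84408 bp upstream in WT and 59812 bp upstream in Uhrf1hepKO, neither at a gene. For E2f1, E2f6, E2f7 and Rbl1, whose ATACseq peaks were in the WT list alone, the nearest Uhrf1hepKO peaks were at Pxmp4, Greb1, Csrp2 and Samhd1.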
